A study of Mus musculus with 48 samples.

Results

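The genes described here are 33 mouse genes that act in the G2 phase of the cell cycle and in mitosis, of 42548 genes in the count table. They come from a list of names, matched to the table by Ensembl ID with no threshold on a measured value, and every one of the 33 was found. The lungs came from 24 mice, with 1 epithelial and 1 whole lung library per mouse, 48 in all. In the epithelial libraries an HA tag on ribosomes of the epithelium was pulled down with an antibody (RiboTag), and RNA on those ribosomes was sequenced from its 3′ ends with a Lexogen QuantSeq kit. The labels repeat that extraction text for the whole lung libraries, which differ from the epithelial ones by title and by compartment, and they do not name the promoter or Cre that places the tag, the ages of the mice, or the dose and time of any agent.

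The 4 arms were saline (6 mice), bleomycin with a control agent (9 mice), bleomycin with KIRA8 (5 mice) and bleomycin with 3G9 (4 mice). Bleomycin is an antibiotic that breaks DNA, and in the lung it causes injury and then fibrosis. KIRA8 is a small molecule that inhibits the kinase and RNase activity of IRE1α, a sensor of unfolded protein in the endoplasmic reticulum. The 3G9 antibody served to inhibit TGFβ signalling. The mice carry 3 batch labels. Saline mice were in S135 (3) and S151 (3), KIRA8 mice in S061 (3) and S135 (2), 3G9 mice in S151 (4), and bleomycin control mice in S061 (3), S135 (2) and S151 (4). Saline mice were given a control agent too. For bleomycin control mice the agent was named Vehicle in S061 and S135 and Axum8 in S151. For saline mice it was named Vehicle in S135 and Axum8 in S151. Batch S061 had no saline mice, so bleomycin control and saline mice stood side by side only in the other 2 batches. Libraries of S061 still entered the fit of that comparison, which held all 24 libraries of a compartment. The 3G9 antibody was measured in S151 alone.

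A cell that enters mitosis needs the kinase Cdk1 bound to cyclin B or cyclin A, and the messages of these proteins and of most mitotic machinery accumulate in G2 and are nearly absent from resting cells. The adult lung epithelium divides rarely, and after injury alveolar type II cells and airway progenitors re-enter the cell cycle. In bulk RNA, more dividing cells and more message in each dividing cell cannot be told apart, and RNA on tagged ribosomes reports messages that are being translated.

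Many mitotic genes share letters in their promoters: the cell cycle genes homology region (CHR), read by the MuvB complexes, and the CCAAT box, read by NF-Y. The RefSeq promoter table (build GRCm38.p6) held a window of 250 bases before and 50 after the start for 28 of the 33 genes, and Aurkb, Ccna2, Kif20a, Pbk and Tpx2 were not in it. The CHR was searched as TTTGAA or TTCGAA and the CCAAT box as CCAAT, on both strands and with overlapping matches allowed. CHR letters were in 23 of 28 genes (82.1%), against 21.7% of the 27025 genes with such a window. CCAAT letters were also in 23 of 28, against 41.1% of all genes, and 21 of 28 (75%) had both, against 8.61%. Birc5, Melk and Nusap1 had neither in their windows. The E2F letters TTTCGCGC or TTTGGCGC were found for 1 of 28 genes, Cdk1, against 0.929% of all genes. The 130 bases that end just before the start are shown for 4 genes that rose in both compartments after bleomycin and carry both motifs, and for Birc5, which rose as they did without these letters there. They run 5′ to 3′ in the direction of the gene, and capitals mark CHR letters (TTCAAA where the match is on the other strand) and CCAAT letters (ATTGG on the other strand).
Cdk1: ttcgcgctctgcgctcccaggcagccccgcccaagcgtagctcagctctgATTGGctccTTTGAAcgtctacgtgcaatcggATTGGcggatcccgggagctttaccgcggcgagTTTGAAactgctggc
Ube2c: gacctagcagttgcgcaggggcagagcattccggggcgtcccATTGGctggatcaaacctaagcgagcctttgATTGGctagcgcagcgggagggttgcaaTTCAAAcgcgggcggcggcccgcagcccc
Cdc20: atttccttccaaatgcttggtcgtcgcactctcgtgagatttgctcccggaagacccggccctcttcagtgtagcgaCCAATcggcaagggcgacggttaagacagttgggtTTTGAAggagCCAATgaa
Kif11: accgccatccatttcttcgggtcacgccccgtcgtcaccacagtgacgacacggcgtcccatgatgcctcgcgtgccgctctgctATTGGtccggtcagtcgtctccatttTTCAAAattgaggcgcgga
Birc5: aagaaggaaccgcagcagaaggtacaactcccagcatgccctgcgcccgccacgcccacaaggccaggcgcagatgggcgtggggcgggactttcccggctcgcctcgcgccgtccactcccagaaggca

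The Cdk1 stretch lies at chr10:69352913-69353042 on the minus strand, that of Ube2c at chr2:164769799-164769928 on the plus strand, and that of Cdc20 at chr4:118437344-118437473 on the minus strand. The Kif11 stretch lies at chr19:37376252-37376381 and that of Birc5 at chr11:117849107-117849236, both on the plus strand. A match is a run of letters and not a measured binding site.

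**Figure D1:**
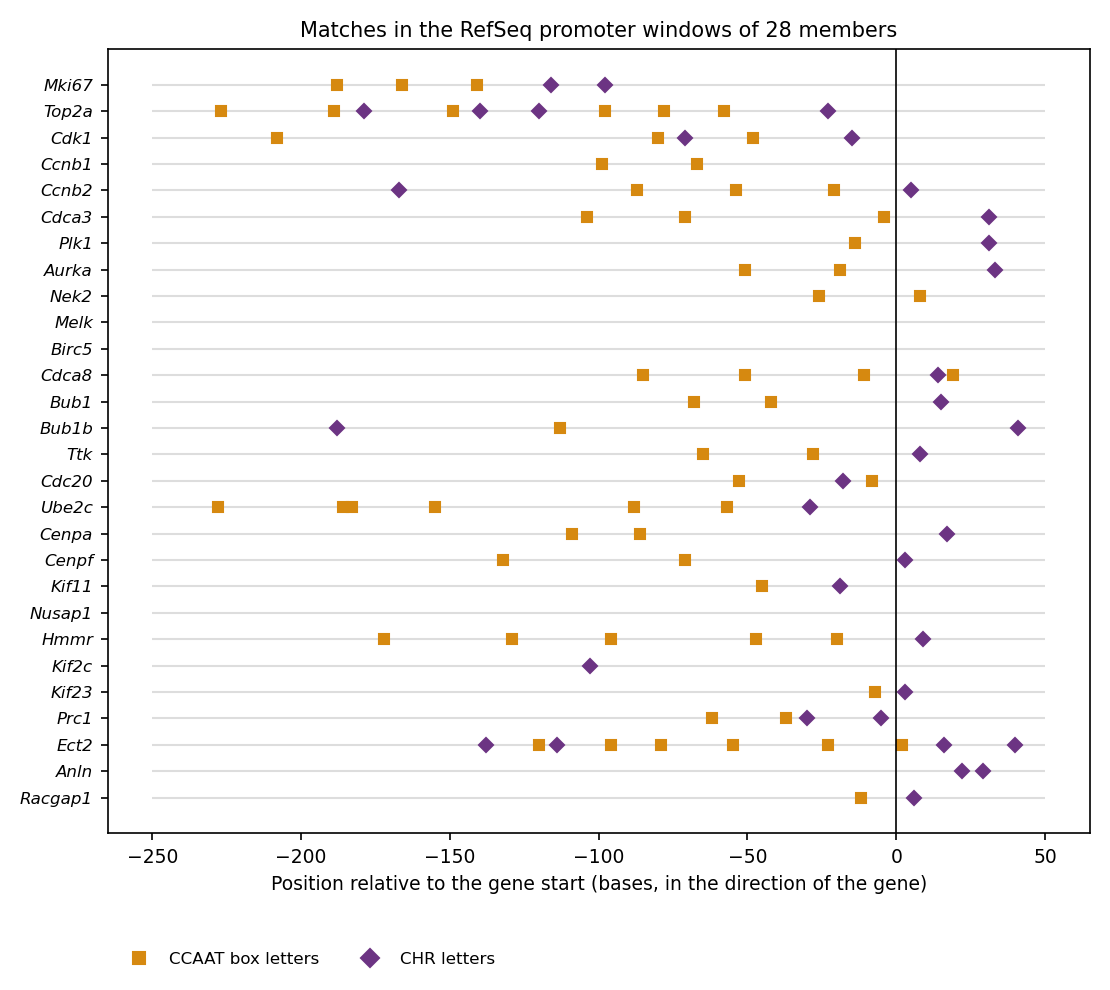
Positions of CHR letters (diamonds) and CCAAT letters (squares) in the promoter windows of 28 mitotic genes, as distance in bases from the gene start (vertical line at 0). In Cdk1 the CHR letters begin at positions -71 and -15, and the windows of Melk, Birc5 and Nusap1 are empty.

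Library totals ran from 7163613 to 51797377 counts, with 855 to 40778 of them on the 33 genes. Levels are given as CPM, counts scaled to the same library total, and differences as log2 fold changes from edgeR's quasi-likelihood test over all genes with batch as a term; a gene is called where its Benjamini-Hochberg adjusted p is under 0.05. Libraries of S061 stand apart: 146 genes close to silent by median in the other batches took 6.01 to 12.7% of its epithelial counts. In its whole lung libraries they took 7.21 to 9.81% of the counts. In S135 they took 0.846% of the whole lung counts of bleomycin control mouse 149. Genes at least 8 times higher in whole lung than in epithelium of saline mice, a measure of RNA from outside the epithelium, took 7.51% ± 1.37 (SD, n = 3) of epithelial counts in bleomycin control mice of S061, against 1.53% ± 0.03 (n = 2) in S135 and 0.705% ± 0.23 (n = 4) in S151. In the epithelium of saline mice this share was 1.06% ± 0.19 (n = 3) in S135 and 0.459% ± 0.09 (n = 3) in S151, and in whole lung it was 8.87 to 20.0% throughout. The list of such genes differed, with 1508 genes for S061 and S135 and 1090 for S151, so the shares of S151 cannot be set against those of the other batches; in whole lung of bleomycin control mice they were 10.1% in S151 against 19.0% in S135 and 15.3% in S061. Results that include S061 are therefore also given without it where that changes them.

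Bleomycin raised nearly the whole set in the epithelium. Of the 33 genes, 31 rose, none fell, and the median log2 fold change was 2.69, a 6.45-fold rise. Over all 17291 genes tested, 4.55% rose, 4.17% fell and the median was -0.0016 on the log2 scale. The summed level of the 33 genes was 110.8, 56.2 and 53.6 CPM in the saline epithelium of S135 and 674 and 415 CPM in its bleomycin control mice. In S151 it was 85.3, 114 and 119 CPM in saline mice and 761, 646, 609.5 and 569 CPM in bleomycin control mice. The lowest injured mouse thus stood above the highest saline mouse by several fold in either batch. Nek2 alone, a gene not called after bleomycin, held 36.4, 57.6 and 29.5 CPM of the S151 saline sums.

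**Figure D2:**
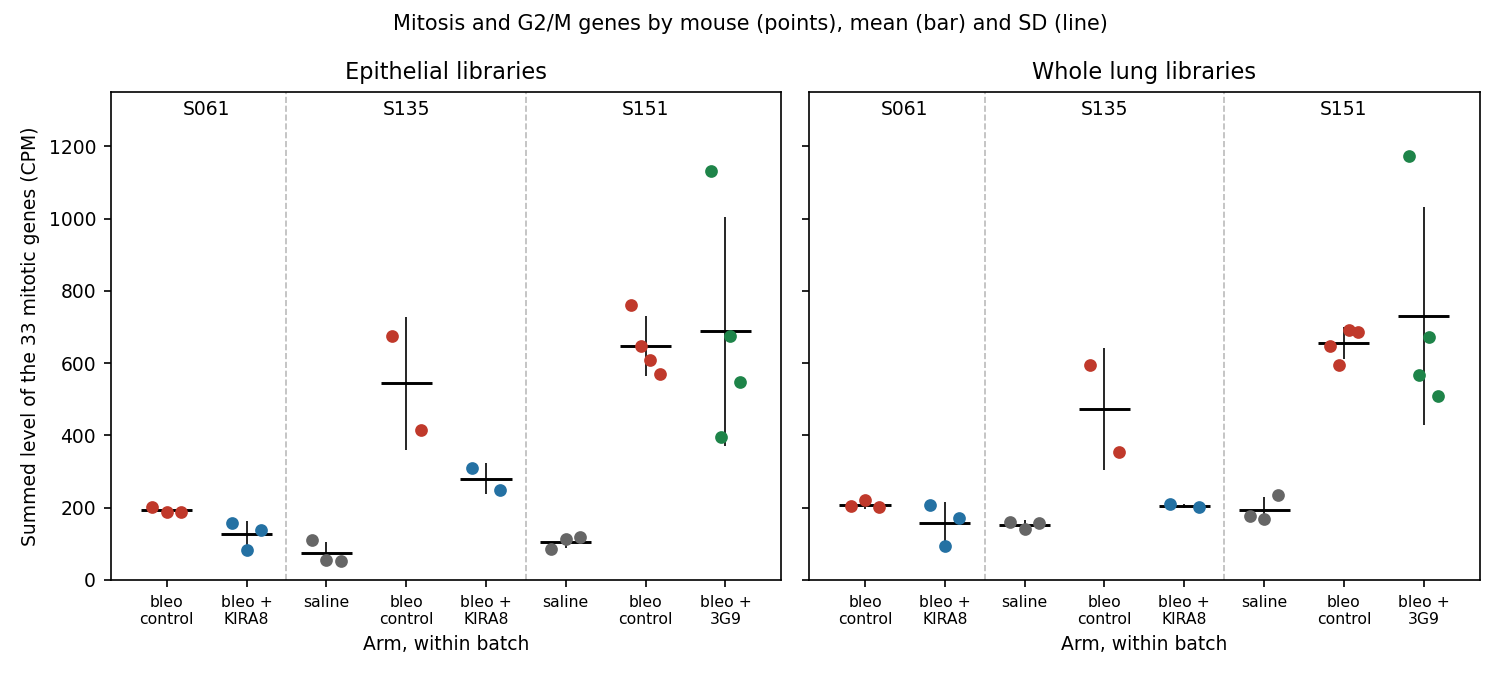
Summed level of the 33 mitotic genes in CPM for each mouse (points), with the mean (bar) and SD (line) of each arm within its batch, in epithelial (left) and whole lung (right) libraries. Saline mice lie between 53.6 and 234.7 CPM and bleomycin control mice of S135 and S151 between 355 and 761 CPM. Those of S061, a batch without saline mice, lie lower, between 187 and 222 CPM. The highest mouse, given 3G9, lies at 1131 and 1172 CPM.

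Mki67 (ENSMUSG00000031004), which encodes the Ki-67 protein that coats mitotic chromosomes, measured 4.65, 4.63 and 6.46 CPM in the S135 saline epithelium and 65.2 and 30.9 CPM after bleomycin. In S151 it measured 3.83, 7.27 and 6.48 CPM in saline and 49.0, 68.3, 46.4 and 35.5 CPM in bleomycin control mice. The 2 arms did not overlap, and the log2 fold change was 2.69 ± 0.33 (SE, with edgeR adjusted p = 1.4e-05). The edgeR test reports no standard error. Here and below SE is the absolute log2 fold change divided by the square root of the test's F statistic. Top2a (ENSMUSG00000020914), the topoisomerase that untangles sister chromatids, measured 17.6, 9.36 and 12.7 CPM in S135 saline epithelium and 111 and 68.7 CPM after bleomycin, and 3.96 to 6.998 CPM against 33.3 to 59.5 CPM in S151. Its levels differed between batches in both arms, and within each batch the arms stood apart (log2 fold change 2.47 ± 0.25, edgeR adjusted p = 5.6e-07).

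Of the 5 genes grouped with the entry kinase and its cyclins, 4 rose. Cdk1 (ENSMUSG00000019942), the kinase that starts mitosis, measured 7.08, 1.49 and 1.19 CPM in S135 saline epithelium against 41.7 and 23.2 CPM after bleomycin, and 2.67, 3.73 and 3.68 CPM against 44.5, 42.9, 39.1 and 34.0 CPM in S151. That is a log2 fold change of 3.07 ± 0.30 (edgeR adjusted p = 4.5e-07). The A-type cyclin Ccna2 rose by 2.86 ± 0.38, the B-type cyclin Ccnb2 by 2.69 ± 0.57, and Cdca3, which marks the Cdk1 inhibitor Wee1 for destruction, by 3.23 ± 0.51, all on the log2 scale. Ccnb1 (ENSMUSG00000041431), the other B-type cyclin, did not pass the test in epithelium (1.81 ± 0.70, edgeR adjusted p = 0.11). It had no counts in saline mice 146 and 153, and its summed counts were 18 and 28 in the saline epithelium of S135 and S151 against 59 and 184 in bleomycin control mice. RefSeq lists a pseudogene of Ccnb1 and one of Ccnb2, so their counts are uncertain.

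Among the 5 genes grouped as mitotic kinases, 4 rose. Plk1 (ENSMUSG00000030867), which drives centrosome maturation and spindle assembly, measured 0.502 to 1.46 CPM in the saline epithelium of S135 and 0.522 to 1.76 CPM in that of S151. After bleomycin it measured 12.5 and 11.9 CPM in S135 and 13.4 to 19.6 CPM in S151 (log2 fold change 3.44 ± 0.32, edgeR adjusted p = 1.5e-07). The centrosome kinase Aurka rose by 2.96 ± 0.45 and Melk by 1.74 ± 0.33 on the log2 scale. Pbk, a kinase of mitotic cells, rose by 3.50 ± 0.42, a value that rests on few counts in S135, where the 3 saline epithelial libraries held 6 in all. Its mean after bleomycin was 56.3 times the saline mean in S135 and 8.55 times that in S151. Nek2, which splits the centrosomes before mitosis, was the exception, at 0.73 ± 0.31 with an edgeR adjusted p of 0.16. Its saline epithelium already measured 29.5 to 57.6 CPM in S151, against 63.4 to 97.6 CPM after bleomycin.

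All 3 listed genes of the chromosomal passenger complex, which corrects faulty attachments of chromosomes to the spindle, rose. Aurkb (ENSMUSG00000020897), its kinase, had no count in any of the 3 saline epithelial libraries of S135 and 24 counts over the 3 of S151, and measured 3.07 and 0.846 CPM after bleomycin in S135 and 7.13, 1.82, 3.67 and 6.40 CPM in S151. Its log2 fold change of 4.40 ± 0.68 (edgeR adjusted p = 1.0e-04) was the largest of the 33 and rests on these few saline counts. Birc5 (ENSMUSG00000017716; survivin), its targeting subunit, rose by 3.08 ± 0.34, from 0.940 to 5.24 CPM in the 6 saline mice to 19.2 to 59.0 CPM in the 6 injured mice of the same batches. Cdca8 (borealin) rose by 2.39 ± 0.33.

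Genes of the later steps rose as well. Cdc20 (ENSMUSG00000006398), the activator of the anaphase-promoting complex, gave the smallest p of the set: 6.45, 2.26 and 3.95 CPM in S135 saline epithelium against 32.8 and 31.7 CPM, and 2.15, 2.16 and 4.46 CPM against 37.5, 25.5, 33.1 and 28.7 CPM in S151 (2.83 ± 0.24, edgeR adjusted p = 4.6e-08). Ube2c (ENSMUSG00000001403), the ubiquitin-conjugating enzyme of that complex, rose by 2.92 ± 0.37. In S151 it measured 2.94, 2.87 and 6.32 CPM in saline and 35.8 to 47.7 CPM in injured epithelium. The 3 spindle checkpoint genes, which hold anaphase until every kinetochore is attached, rose by 1.86 (Bub1), 2.29 (Bub1b) and 3.14 (Ttk), and the centromere genes by 1.86 (Cenpa) and 2.78 (Cenpf) on the log2 scale. All 5 spindle motor and microtubule genes (Kif11, Nusap1, Tpx2, Hmmr and Kif2c) rose, with a range of 2.27 to 2.98. All 6 cytokinesis genes rose too, from 2.06 for Ect2 to 3.15 for Racgap1, which together with Kif23 builds the central spindle.

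Within each batch the arms stood apart for nearly all members. Every bleomycin control mouse lay above every saline mouse in the epithelium for 32 of 33 genes in S135, where 22.5% of all genes did so, and for 32 of 33 in S151, where 20.7% did. Nek2 overlapped in S135 and Ccnb1 in S151. Tested within S135, with 2 injured mice, 16 genes rose, where 1.43% of all genes did, and within S151 29 rose, where 2.71% did. The difference of the response between these batches passed for none of the 33 in edgeR (0 with DESeq2). At an unadjusted p under 0.05 there was 1, where 5.65% of all genes were: Pbk, whose response was smaller in S151 (-2.85 ± 0.81, edgeR adjusted p = 0.85). No gene passed among all those tested there (0%). Aurkb had the largest difference (-4.86), without any saline count in S135, and did not reach that unadjusted p. The share of counts from genes depleted in epithelium also differed between the arms (1.53% against 1.06% in S135, 0.705% against 0.459% in S151), and its part in these rises was not tested.

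**Figure D3:**
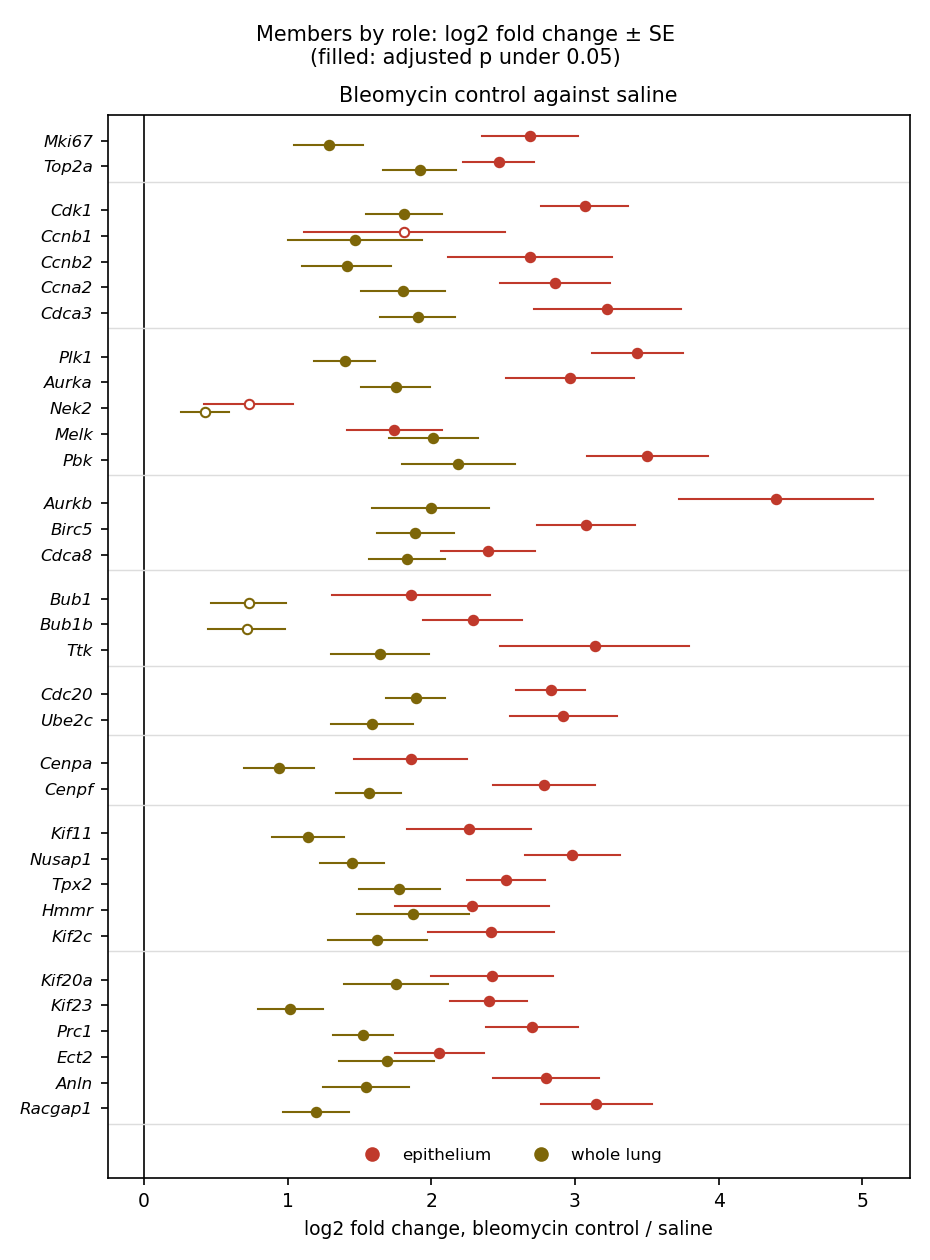
Log2 fold change of each of the 33 genes in bleomycin control over saline mice, with its standard error, in epithelium (red) and whole lung (brown), grouped by role. All values are above 0, filled points passed the test, and epithelium has the larger value for every gene but Melk.

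In whole lung 30 of the 33 genes rose and none fell, with a median log2 fold change of 1.62, a 3.08-fold rise, where 6.01% of all 19345 genes tested rose and 4.14% fell. The members that rose in both compartments numbered 29, and the share of all genes that did so was not computed. Over all genes, 787 of 17291 rose in epithelium, an upper bound on the number in both. The summed level was 162, 139.9 and 158 CPM in saline mice of S135 against 593 and 355 CPM after bleomycin, and 176, 168 and 235 CPM against 648, 596, 691 and 687 CPM in S151. Here too the arms were apart in both batches. Cdc20 again gave the smallest p (1.89 ± 0.21, edgeR adjusted p = 5.4e-06), and Pbk (2.19 ± 0.39), Melk (2.02 ± 0.31) and Aurkb (1.997 ± 0.41) the largest changes.

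Mki67 rose by 1.29 ± 0.24 in whole lung, from 16.3 to 19.8 CPM in S135 saline mice to 47.2 and 34.7 CPM, and from 21.4 to 27.8 CPM to 70.5 to 92.4 CPM in S151. Cdk1 rose by 1.81 ± 0.27, Top2a by 1.92 ± 0.25, Birc5 by 1.89 ± 0.27, Ube2c by 1.59 ± 0.29, Prc1, which bundles the microtubules of the central spindle, by 1.53 ± 0.21, and Cdca3 by 1.91 ± 0.26 on the log2 scale. Ccnb1 passed here with an edgeR adjusted p of 0.045 (1.47 ± 0.47). The genes that did not pass were Bub1 (0.73 ± 0.26, adjusted p = 0.078), Bub1b (0.71 ± 0.27, adjusted p = 0.088) and Nek2 (0.42 ± 0.17, adjusted p = 0.11). Every injured mouse lay above every saline mouse for 28 of 33 genes in S135 (16.8% of all genes) and for 33 of 33 in S151 (16.4%). Tested within a batch, 8 genes rose in S135 (0.977% of all genes) and 26 in S151 (2.32%). The difference of the whole lung response between the batches passed for none in edgeR (0 with DESeq2). At an unadjusted p under 0.05 there were 3, Cdk1, Ccnb2 and Kif11, where 7.06% of all genes were.

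The same mice gave both libraries, so the response could be compared between compartments with the mouse as a block. It was larger in epithelium for 32 of 33 genes, with a median difference of 1.29 on the log2 scale (2.45-fold), and 9 genes passed the test, where 0.257% of 19808 genes did in that direction and 0.0858% in the other. The 9 were Plk1 (2.13 ± 0.31, edgeR adjusted p = 0.0034), Racgap1 (1.99 ± 0.40), Bub1b (1.71), Nusap1 (1.53), Kif23 (1.43), Mki67 (1.37 ± 0.25), Cdk1 (1.33 ± 0.29), Prc1 (1.29) and Cdc20 (0.96 ± 0.22). Aurkb had the largest difference but did not pass (2.76 ± 0.79, adjusted p = 0.14), nor did Birc5 (1.26), Ube2c (1.34), Top2a (0.52) or Ccnb1 (0.88). Melk was the gene with a negative difference (-0.25). At an unadjusted p under 0.05 there were 24 genes, all larger in epithelium, where 5.36% of all genes were. The count depends on the model: 14 genes passed with DESeq2 (0.899% of all genes in that direction), 3 without S061 (0.109%) and 1 without the mouse block (0.0404%), while the median stayed between 1.18 and 1.32.

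This difference can be read from the levels of single mice. Divided by the same mouse's whole lung sum, the epithelial sum was 0.686, 0.402 and 0.339 in S135 saline mice and 0.484, 0.678 and 0.505 in S151 saline mice. In bleomycin control mice it was 1.14 and 1.17 in S135, 1.18, 1.08, 0.883 and 0.827 in S151, and 0.996, 0.844 and 0.941 in S061. No saline mouse overlapped with an injured mouse in either batch. Nek2 weighs on these ratios: in saline mouse 221 it held 57.6 of 113.6 CPM in epithelium and 25.4 of 167.6 CPM in whole lung. Ratios without it were not computed. Over all genes tested, the median log2 CPM ratio in S151 was -1.12, -0.84 and -0.82 in saline mice. In its bleomycin control mice it was -0.47, -0.90, -0.72 and -0.43. In S135 it was -0.48, -0.53 and -0.575 against -0.43 and -0.43. The part of this shift in the ratios of the sums was not tested. In saline mice 8 of the 32 genes that could be tested were lower in epithelium than in whole lung, where 30.3% of all genes were, and 2 were higher, where 27.3% were; both shares are near those of all genes or below them. The 8 were Cenpa (-2.18 ± 0.57), Racgap1 (-1.59 ± 0.60), Bub1b (-1.48), Plk1 (-1.32), Cenpf (-1.21), Mki67 (-1.18 ± 0.19), Nusap1 (-1.11) and Kif23 (-0.99). Nek2 (1.52 ± 0.21) and Melk (1.21) were higher in the epithelium. Ttk (-1.73 ± 1.03), Ccnb1 (-1.50), Ube2c (-0.74), Birc5 (-0.57), Top2a (-0.23), Cdk1 (-0.07) and Cdc20 (0.48) did not pass. The median over the 32 genes was -0.86. With both directions counted, 6 genes passed without saline mouse 207 or without mouse 230, and 5 without mouse 221. Shares of all genes with a mouse left out are not given here, so these counts show only how the member count varies.

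In bleomycin control mice 15 of 33 genes were called higher in epithelium (30.5% of all genes) and 1, Cenpa, was lower (-0.95 ± 0.21, edgeR adjusted p = 0.0016; 30.3% of all genes), with a median of 0.40. These calls are relative to TMM scaling, which sets the bulk of genes equal between the compartments. On the CPM scale the levels were closer: the summed level was below that of whole lung in 5 of the 9 mice, and a majority of the 33 genes were higher in epithelium in 3 of the 9, with a range of 8 to 22 genes. Of all genes tested, 20.4 to 42.9% were higher in epithelium by CPM in these mice. In saline mice 3 to 9 of the 33 genes were higher by CPM, and 12.9 to 31.9% of all genes. All 5 genes grouped as mitotic kinases were among the 15, led by Nek2 (1.83 ± 0.13) and Melk (1.15 ± 0.20), and so were Cdc20 (1.20 ± 0.19) and Cdk1 (1.04 ± 0.20). Birc5 (0.56), Ube2c (0.69) and Top2a (0.28) were higher as well. Mki67 (-0.05 ± 0.19) and Ccnb1 (-0.20 ± 0.32) did not differ beyond their errors. Within S061, where the epithelial libraries held the most RNA of depleted genes, 2 genes passed as higher (20.8% of all genes) and 3 as lower (21.5%).

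**Figure D4:**
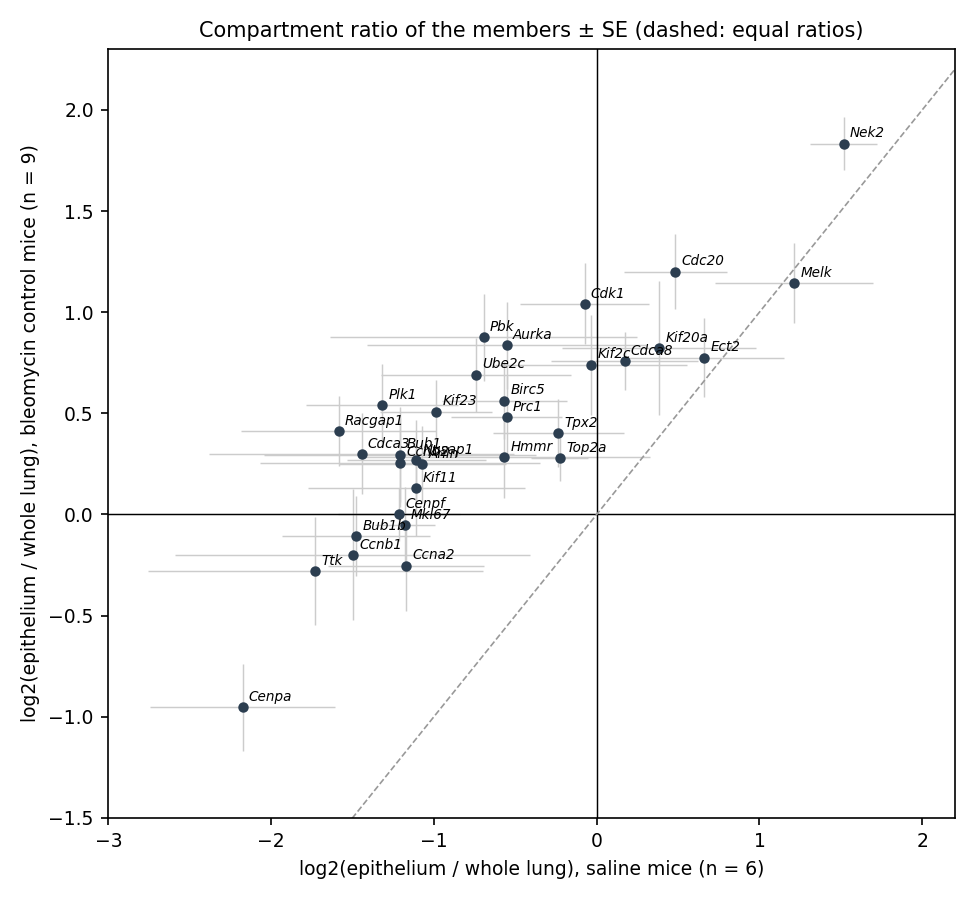
Log2 ratio of epithelium to whole lung for 32 mitotic genes in saline mice (horizontal axis) and in bleomycin control mice (vertical axis), with standard errors; the dashed line marks equal ratios. All genes but Melk lie above it, and the medians are -0.86 in saline and 0.40 in bleomycin control mice.

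KIRA8 mice were in S061 and S135, and the comparison comes from the fit of all 24 libraries of a compartment with batch as a term. In whole lung 32 of 33 genes were lower with KIRA8, with a median of -0.85 on the log2 scale (0.556-fold), and 2 passed the test: Tpx2, which builds spindle microtubules and activates Aurora A (-1.39 ± 0.31, edgeR adjusted p = 0.042), and Cdc20 (-0.96 ± 0.22, adjusted p = 0.048). Over all genes 0.212% were called lower and 0.315% higher. At an unadjusted p under 0.05, 24 of the 33 were lower, where 7.54% of all genes were. Melk (-1.43 ± 0.34, adjusted p = 0.054) and Pbk (-1.18 ± 0.41, adjusted p = 0.17) had large differences that did not pass. The other genes named for every comparison were lower without passing: Cdk1 (-0.97 ± 0.28, adjusted p = 0.096), Mki67 (-0.97 ± 0.27, adjusted p = 0.09), Top2a (-0.85), Ccnb1 (-0.84), Birc5 (-0.77) and Ube2c (-0.58). Kif23 alone was on the other side of 0 (0.23 ± 0.25).

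The 2 calls stood close to the threshold. No gene passed without a low-count filter, with sex as a term, without S061 or within either batch, 14 were lower with DESeq2 (1.45% of all genes) and 16 with limma voom (3.49%), and 8 were without KIRA8 mouse 20 (0.419%) and 6 without control mouse 149 (0.647%). None passed without KIRA8 mouse 154, 155 or 32 or without control mouse 17, 31, 45, 148, 204 or 208R, and 1 passed without KIRA8 mouse 41 or control mouse 206 or 225. The median kept its sign in all of these, at -0.55 within S061 and -1.12 within S135. For the counts of 0 and 1, shares of all genes are not given here.

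Tpx2 measured 10.2, 9.01 and 8.44 CPM in whole lung of the S061 controls and 5.92, 1.72 and 6.33 CPM with KIRA8, and 29.1 and 11.8 CPM against 5.31 and 5.96 CPM in S135. Cdc20 measured 3.89, 3.45 and 3.53 CPM against 2.23, 1.42 and 1.71 CPM in S061, and 16.1 and 11.5 CPM against 7.93 and 7.78 CPM in S135. For both genes every KIRA8 mouse lay below every control mouse of its batch. That held for 9 of 33 genes in S061 (6.97% of all genes) and for 30 of 33 in S135 (18.4%). In S061, 1 gene, Kif23, lay above all controls in every KIRA8 mouse (12% of all genes). The summed whole lung level was 207, 94.0 and 171 CPM with KIRA8 against 204, 222 and 201.0 CPM in S061, where mouse 20 lay within the controls, and 209 and 201 CPM against 593 and 355 CPM in S135. The mean with KIRA8 in S135 was 1.34 times the saline mean of that batch. The response to KIRA8 did not pass a test of difference between the batches for any of the 33 genes in edgeR (0% of all genes were called higher and 0.00555% lower). With DESeq2 1 passed (0.9% of all genes in its direction), and 5 had an unadjusted p under 0.05 in edgeR (8.09% of all genes).

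In epithelium 30 of 33 genes were lower with KIRA8, with a median of -0.58 on the log2 scale (0.67-fold), and none passed the test, where 0.174% of all genes were called lower and 0.0868% higher. At an unadjusted p under 0.05, 8 of the 33 were lower (5.51% of all genes), and 3 were called lower with DESeq2 (0.862% of all genes) and 3 with limma voom (4.4%). The largest differences were in Kif2c, which strips tubulin from microtubule ends (-1.60 ± 0.48, edgeR adjusted p = 0.17), Kif20a (-1.52 ± 0.53) and Melk (-1.33 ± 0.39), and the smallest p was that of Cdk1 (-1.05 ± 0.31, adjusted p = 0.16). Mki67 (-0.90), Ccnb1 (-1.07), Cdc20 (-0.51), Top2a (-0.40), Birc5 (-0.36) and Ube2c (-0.29) were lower without passing. Cenpa (0.63 ± 0.39), Pbk (0.22) and Bub1b (0.16) were higher without passing.

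The summed epithelial level with KIRA8 was 158, 83.6 and 137 CPM against 203, 187 and 189 CPM in S061, and 311 and 249.9 CPM against 674 and 415 CPM in S135. So all 5 treated mice lay below the controls of their batch. With KIRA8 the S135 mean remained 3.81 times that of saline mice. Cdk1 showed the same order by mouse, with 7.13, 4.40 and 6.79 CPM against 12.1, 10.7 and 17.1 CPM in S061 and 12.6 and 10.9 CPM against 41.7 and 23.2 CPM in S135. Every treated mouse lay below every control for 16 of 33 genes in S061 (23.3% of all genes) and 19 of 33 in S135 (23% of all genes). The share from depleted genes was 9.91% ± 1.60 with KIRA8 against 7.51% ± 1.37 in S061, and 1.30% against 1.53% in S135, and its part in these values was not tested. The response did not pass a test of difference between the batches for any member in edgeR (0 with DESeq2; 0.0359% of all genes were called higher and 0.126% lower), and 3 had an unadjusted p under 0.05 (14.1% of all genes). The median difference, S135 less S061, was -0.52 on the log2 scale and was negative for 25 of 33 genes. Over all genes that median was -0.11.

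The KIRA8 response was not shown to differ between epithelium and whole lung: none of the 33 genes passed the interaction test in edgeR (0.0101% of all genes were called higher in it and 0.0404% lower), and the median difference was 0.18. With DESeq2 1 passed (0.596% of all genes in that direction), and 3 had an unadjusted p under 0.05 in edgeR (11.7% of all genes). Pbk (1.56 ± 0.50, adjusted p = 0.18), Cenpa (1.36 ± 0.43, adjusted p = 0.18) and Top2a (0.45 ± 0.19, adjusted p = 0.34) had the smallest p, each with the less negative or the positive value in epithelium. Kif20a (-0.81 ± 0.62) was the farthest from 0 in the other direction.

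**Figure D5:**
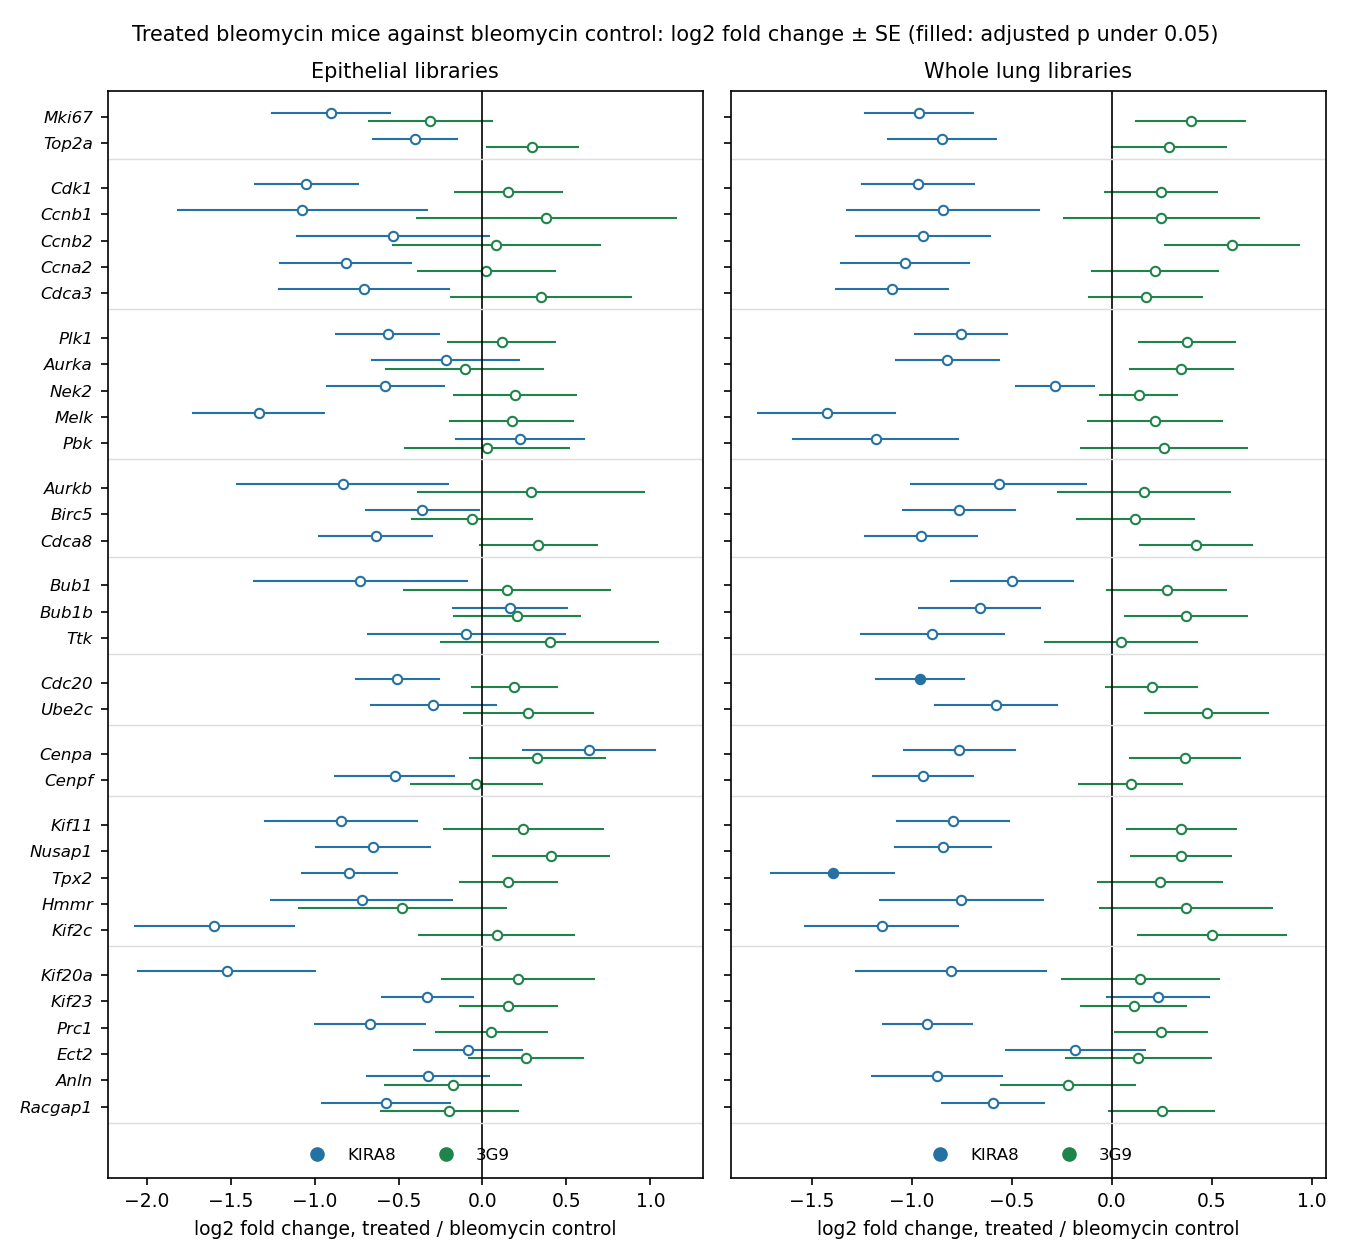
Log2 fold change of each of the 33 genes in KIRA8 (blue) and 3G9 (green) mice over bleomycin control mice, with its standard error, in epithelium (left) and whole lung (right). Filled points, Tpx2 and Cdc20 with KIRA8 in whole lung, passed the test; the KIRA8 medians are -0.58 and -0.85 and the 3G9 medians 0.15 and 0.25.

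With 3G9 no member passed in either compartment, and none had an unadjusted p under 0.05 in edgeR, where 3.27% of all genes did in epithelium and 6.94% in whole lung (0 members passed with DESeq2 and limma voom). In epithelium 26 of 33 genes had a value above 0, against 51.1% of all genes, with a median of 0.15 on the log2 scale, and 0% of all genes were called. In whole lung 32 of 33 were above 0, against 48.7% of all genes, with a median of 0.25, and 0.165% of all genes were called higher and 0.031% lower. Anln was the gene below 0 in whole lung (-0.22 ± 0.34).

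In epithelium Nusap1 (0.41 ± 0.35), Ttk (0.40 ± 0.65) and Hmmr (-0.48 ± 0.62) were farthest from 0, and Cdca8 (0.33 ± 0.35) and Top2a (0.30 ± 0.27) followed Nusap1 in the order of p. Ccnb1 (0.38), Ube2c (0.27), Cdc20 (0.19) and Birc5 (-0.06) lay within their standard errors of 0. Mki67 measured 76.4, 17.0, 42.1 and 24.6 CPM in the epithelium of 3G9 mice, against 35.5 to 68.3 CPM in its controls (-0.31 ± 0.37). Cdk1 measured 65.1, 23.8, 45.8 and 34.8 CPM against 34.0 to 44.5 CPM (0.15 ± 0.32). For both genes the treated mice reached above and below the controls. In whole lung Ccnb2 (0.60 ± 0.33), Kif2c (0.50 ± 0.37) and Ube2c (0.47 ± 0.31) were farthest from 0, and Plk1 (0.38 ± 0.24) was among the 3 with the smallest p. Mki67 (0.39), Top2a (0.29), Cdk1 (0.25), Ccnb1 (0.25), Cdc20 (0.20) and Birc5 (0.12) were above 0 without passing.

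The 4 mice given 3G9 were spread widely. Their summed epithelial levels were 1131, 395, 675 and 549 CPM against 569 to 761 CPM in controls, and their whole lung levels 1172, 567, 671 and 510.2 CPM against 596 to 691 CPM. Mouse 218 was the highest of all libraries in both compartments, and its whole lung column carries a suffix that the labels do not explain. Without that mouse the medians were -0.10 in epithelium and -0.04 in whole lung. In none of the 33 genes did all 3G9 mice lie on 1 side of all controls, where 0.37% of all genes lay above and 1.73% below in epithelium and 1.07% above and 2.4% below in whole lung. The difference of the 3G9 response between compartments passed for none in edgeR (0 with DESeq2), as for none of all genes (0%). At an unadjusted p under 0.05 there was 1, Mki67 (-0.67 ± 0.29), where 2.26% of all genes were, and Hmmr (-0.78 ± 0.70) and Aurka (-0.46 ± 0.47) were the others farthest from 0.

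The levels of the 33 genes were correlated from mouse to mouse. Over the 24 epithelial libraries the median Pearson correlation between pairs of genes, on log2 CPM with a pseudocount of 0.5, was 0.80, and over the 24 whole lung libraries it was also 0.80; over all pairs of tested genes it was 0.085 and 0.114. After each arm's mean within its batch was taken out, the median was 0.49 in epithelium and 0.54 in whole lung, with 509 and 523 of 528 pairs above 0. Over all pairs of tested genes the medians after this step were 0.066 and 0.043, with 58.3 and 55.6% of pairs above 0. These libraries share batch and depth. Against the mean of the other members after the same step, Top2a (0.89 in both compartments) was the closest, and Ccnb1 (0.35) and Nek2 (0.36) were the loosest in epithelium and Ect2 (0.34) and Kif23 (0.38) in whole lung.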

How the data were processed

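The authors deposited a table of raw counts per Ensembl gene for 48 libraries. Reads were aligned with STAR 2.5.2b to GRCm38, per the submitters' processing notes; counting program and annotation: not given in the sources used here. Library totals were 7163613 to 51797377 counts. QuantSeq counts 3′ ends, so a count does not scale with transcript length, and reads without molecular identifiers are not independent molecules. From the deposited counts, each compartment was fitted on its 24 libraries in edgeR 4.0.16 (R 4.3.3; filterByExpr, TMM, robust quasi-likelihood test) with arm and batch as terms; compartments were compared with the mouse as a block, since both libraries came from the same animal. Alternatives were DESeq2 1.42.0, limma 3.58.1 (voom with sample weights), other scaling, no filter, sex as a term, batches alone and left-out mice. Only the edgeR comparison of bleomycin control with saline mice was tried on simulated counts. Those counts had a fixed dispersion and no batch or mouse effect.

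The rule for named genes took Mki67, Top2a, Cdk1, Ccnb1, Birc5, Cdc20, Ube2c and, for each comparison, the 3 members with the smallest p and the 3 with the largest change. It was followed for comparisons of arms, of compartments and of the bleomycin response between compartments; differences between batches, and those between compartments of the KIRA8 and 3G9 responses, are given by counts and leading members, and levels by mouse only where a result turns on them. The list of members uses no measured value, but it and the other lists were drawn up with earlier results of these data known. The table holds Ensembl IDs only, and 0 of them matched the RefSeq gene table (GRCm38.p6) used here, so lists of other cell cycle genes and of cell type markers were not applied, and the epithelial label was checked only through the genes depleted in saline epithelium (1508 from S151, applied to the other batches, and 1090 from S135, applied to S151; at least 8-fold and 5 CPM in whole lung).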

Additional observations from a re-analysis of the deposited data

Results flagged for a closer look

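Of 64 groups of 4, 5, 6 or 9 mice tested for a mouse far from the rest, 3 had one, and chance alone gives about 1 in 20. The groups pool batches, whose levels differ. Top2a in whole lung was highest in bleomycin control mouse 148 of S135, at 138.6 CPM, where the means were 107 CPM in S135, 53.7 CPM in S151 and 31.1 CPM in S061. Ccnb1 in whole lung was lowest in bleomycin control mouse 149, at 1.03 CPM. Birc5 in epithelium was highest in bleomycin control mouse 206, at 59.0 CPM.

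The bleomycin response differed between epithelium and whole lung, by an interaction term, in 9 genes. On the log2 scale the epithelial response was larger by 1.37 for Mki67, 1.33 for Cdk1, 2.13 for Plk1, 1.71 for Bub1b, 0.96 for Cdc20, 1.43 for Kif23, 1.53 for Nusap1, 1.29 for Prc1 and 1.99 for Racgap1.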

How the results depend on the processing

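Of 86 counts of members called under another setting, 67 stayed within 1.5 times the count first reported, and 85 of 86 medians moved by less than the spread between mice. The 67 include counts of 0 under both settings. With a mouse left out, 82 of 99 counts stayed in that range and 17 moved. The spread, 0.40 in epithelium and 0.33 in whole lung on the log2 scale, is larger than the 3G9 medians, so it cannot show whether their signs are stable. After bleomycin, 16 epithelial and 8 whole lung genes passed within S135. The difference of the bleomycin response between compartments passed for 14 genes with DESeq2, 3 without S061 and 1 without the replicate block; the KIRA8 difference passed for 1 with DESeq2, and the difference between batches in whole lung for 1 with DESeq2. With KIRA8, 3 epithelial genes passed with DESeq2 and 3 with limma voom. In whole lung 14 passed with DESeq2, 16 with limma voom, 1 with the 2 arms alone, and 0 without a filter, with sex as a term, without S061, within S061 or within S135, where the median without S061 was -1.23; leaving out mice gave 0 to 8. Epithelium against whole lung was counted over both directions. In saline mice it passed for 5 genes within S135 and for 5 to 10 with a mouse left out. Shares of all genes for these saline settings are not given here. In bleomycin control mice it passed for 5 genes within S061. Signs turned for Ccnb1 (0.60) and Mki67 (0.58) in bleomycin control mice within S135, and for Mki67 over left-out mice (-0.20 to 0.049). In saline mice they turned for Cdk1 without the replicate block (0.081), within S151 (0.39) and over left-out mice (-0.25 to 0.21), and for Ube2c within S151 (0.14). With 3G9 and limma voom they turned for Birc5 (0.17) and Ttk (-0.066) in epithelium, and for Birc5 (-0.21), Cdc20 (-0.19), Cdk1 (-0.11) and Ube2c (-0.0049) in whole lung. Over left-out mice 3G9 signs turned in epithelium for Birc5 (-0.23 to 0.29), Cdk1 (-0.043 to 0.34) and Top2a (-0.0082 to 0.51), and in whole lung for Birc5 (-0.42 to 0.34), Cdc20 (-0.033 to 0.35), Cdk1 (-0.052 to 0.40), Mki67 (-0.082 to 0.61), Plk1 (-0.0023 to 0.49) and Top2a (-0.055 to 0.41). The planned leave-one-out of the compartment interactions was not run. Within-compartment comparisons of arms share no mouse, so no paired analysis was possible because each mouse had 1 arm. Aurkb, Ccnb1, Pbk and Ttk are limited by depth, with few counts in saline epithelium.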
